A study of Caenorhabditis elegans with 2 samples.

Results

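The X chromosome held 290 of 2119 reproducible LIN-13 peaks analysed here in whole L1 larvae, the first larval stage, of Caenorhabditis elegans. These are peaks of the authors' optimal list by irreproducible discovery rate (IDR), a method that keeps peaks ranked reproducibly between replicates. They were chosen as the IDR peaks on X whose summit lay more than 500 bp from the 5' end of every annotated tRNA, snoRNA or snRNA gene. Before that rule the list held 339 peaks on X and 1994 on the autosomes, and 49 of those on X were left out, 48 of them beside a tRNA gene. The same rule left 1829 peaks on the 5 autosomes and 2119 on all chromosomes, and removed 165 autosomal ones.

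Chromatin immunoprecipitation with sequencing (ChIP-seq) was done in 2 biological replicates of L1 larvae of strain OP49, labelled as mixed sex. All animals carry the unc119(ed3) mutation and the insertion wgIs49, which holds lin-13 fused to TY1, EGFP and FLAG tags together with unc119. The antibody is labelled lin-13. Whether only the tagged LIN-13 of the transgene or also untagged LIN-13 was recovered is not known here. Both replicates belong to 1 group, so the labels define no comparison between samples and no test between groups could be made. Fragments were selected from 150 to 350 bp, control libraries were not analysed here, and read depth is unknown. Tissues and sexes cannot be told apart in whole animals.

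LIN-13, which has zinc fingers, belongs to the class B synthetic multivulva (synMuv B) proteins, which repress vulval and germline programs in somatic cells. The X chromosome of C. elegans is regulated as a whole: in hermaphrodites, which carry a pair of X chromosomes, a dosage compensation complex binds X and lowers its transcription to match males, which carry a single one. That complex is first loaded at scattered recruitment sites on X, and short GC-rich sequence motifs are known from those sites. Its binding was not measured in this experiment, and the sources used here do not annotate the recruitment sites.

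The X peaks that carry the results are shown first by sequence, as the summit with 100 bp on either side, on the forward strand of ce11 (RefSeq copy of the same assembly, WBcel235). The strongest peaks near genes lay upstream of puf-9, an RNA-binding protein of the Pumilio family (chrX:5841191-5841391), of serp-1.1, annotated by RefSeq as a stress-associated endoplasmic reticulum protein (chrX:15841167-15841367), and of rpl-11.2, a protein of the large ribosomal subunit (chrX:2242893-2243093). None of these 3 windows contains either motif word described below, and their GC content was 48.8%, 60.7% and 45.8%, in that order.
puf-9: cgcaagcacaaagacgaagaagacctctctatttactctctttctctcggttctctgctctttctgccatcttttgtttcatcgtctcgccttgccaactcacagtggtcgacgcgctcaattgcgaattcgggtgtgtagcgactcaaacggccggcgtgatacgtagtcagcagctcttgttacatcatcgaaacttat
serp-1.1: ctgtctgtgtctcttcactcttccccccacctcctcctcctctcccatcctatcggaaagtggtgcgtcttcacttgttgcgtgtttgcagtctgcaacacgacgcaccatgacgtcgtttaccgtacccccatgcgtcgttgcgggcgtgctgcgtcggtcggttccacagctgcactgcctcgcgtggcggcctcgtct
rpl-11.2: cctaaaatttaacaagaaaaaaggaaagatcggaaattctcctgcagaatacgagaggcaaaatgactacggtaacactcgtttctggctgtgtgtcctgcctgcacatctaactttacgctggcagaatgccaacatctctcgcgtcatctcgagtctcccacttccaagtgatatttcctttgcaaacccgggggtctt

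The 3 strongest peaks farther than 1000 bp from every protein-coding 5' end lay between genes, nearest to C30E1.4 (chrX:16929664-16929864), ZK899.6 (chrX:9465768-9465968) and K02D3.1 (chrX:13700731-13700931). The next pair of distal peaks by signal, nearest to W02H3.3 (chrX:11094071-11094271) and F20B6.9 (chrX:4209156-4209356), are shown because they hold both motif words. Capitals mark the 8-letter words GCGCAGGG and GCGAAGGG on either strand, where CCCTGCGC and CCCTTCGC are the same words read on the other strand.
C30E1.4: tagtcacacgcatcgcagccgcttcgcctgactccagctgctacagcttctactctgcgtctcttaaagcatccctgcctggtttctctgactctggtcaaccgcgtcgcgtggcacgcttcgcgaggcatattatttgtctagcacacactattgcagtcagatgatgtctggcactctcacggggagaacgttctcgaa
ZK899.6: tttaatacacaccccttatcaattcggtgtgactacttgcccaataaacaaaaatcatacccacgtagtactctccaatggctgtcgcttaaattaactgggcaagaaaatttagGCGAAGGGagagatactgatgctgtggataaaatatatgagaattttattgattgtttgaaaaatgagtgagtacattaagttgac
K02D3.1: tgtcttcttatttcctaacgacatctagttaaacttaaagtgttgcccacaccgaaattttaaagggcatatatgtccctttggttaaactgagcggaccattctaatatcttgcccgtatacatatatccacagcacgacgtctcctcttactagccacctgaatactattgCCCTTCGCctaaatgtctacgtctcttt
W02H3.3: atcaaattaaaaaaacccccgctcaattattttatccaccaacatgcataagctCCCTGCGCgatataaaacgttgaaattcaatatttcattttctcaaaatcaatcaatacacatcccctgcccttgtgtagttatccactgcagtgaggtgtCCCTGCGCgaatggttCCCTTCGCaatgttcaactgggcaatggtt
F20B6.9: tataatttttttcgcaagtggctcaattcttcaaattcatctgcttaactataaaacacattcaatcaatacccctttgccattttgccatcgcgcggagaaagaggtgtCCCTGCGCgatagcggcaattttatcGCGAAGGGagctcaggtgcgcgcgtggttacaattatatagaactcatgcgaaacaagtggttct

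The peaks were less dense on X than on the 5 autosomes pooled when counted by length, and about equally dense when counted by genes. X had 16.4 peaks per Mb, against 22.2 on the autosomes, and per 1000 protein-coding genes X had 106.2 and the autosomes 106.1. X has 154 genes per Mb and the autosomes 209. Single autosomes spanned a wider range than this difference, from 14.2 peaks per Mb on chromosome V to 32.2 on III, so X lay inside their range. The calls of the pooled list, which includes background calls, were spread more evenly, with 295 per Mb on X and 292 per Mb on the autosomes. The 290 reproducible peaks on X amounted to 5.54% of its 5231 pooled calls (95% exact interval 4.94 to 6.20), against 7.58% on the autosomes and 7.22% over all chromosomes. These shares compare the sizes of the lists, and peaks were not matched to pooled calls for them. All exact intervals here are Clopper-Pearson intervals and cover counting error only.

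Signals are the authors' score for each peak, on a scale that is not stated, and are used to rank peaks within the list. Each replicate list has its own scale. X peaks ranged from 48.3 to 513 with a median of 84.3, against a median of 79.4 on the autosomes. On a percentile scale where 0 is the strongest peak of the kept set, the median was 46.2 on X and 50.3 on the autosomes, and single autosomes had 48.6 to 53.9. This difference of -4.08 percentile points changed sign in each replicate alone, with 2.69 in replicate 1 and 0.236 in replicate 2, and was 0.0643 with no small RNA gene rule. The data therefore give no steady order of strength between X and the autosomes.

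X peaks lay farther from protein-coding 5' ends. Within 500 bp of a protein-coding 5' end were 126 of 290 X peaks, 43.4% (95% exact interval 37.7 to 49.4), against 1164 of 1829 autosomal peaks, 63.6%, with 59.0% to 69.5% on single autosomes. Distal peaks, with a summit over 1000 bp from every such end, made up 121 of 290 on X, 41.7% (36.0 to 47.6), against 455 of 1829 on the autosomes, 24.9% (22.9 to 26.9). No autosome reached the X share, the highest being 29.1%. The chromosomes themselves differ in the same direction: 65.1% of the bases of X and 57.4% of autosomal bases lie over 1000 bp from every 5' end. The annotated 5' end of a trans-spliced C. elegans transcript can lie downstream of where transcription begins, which applies to all chromosomes in this count.

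**Figure D1:**
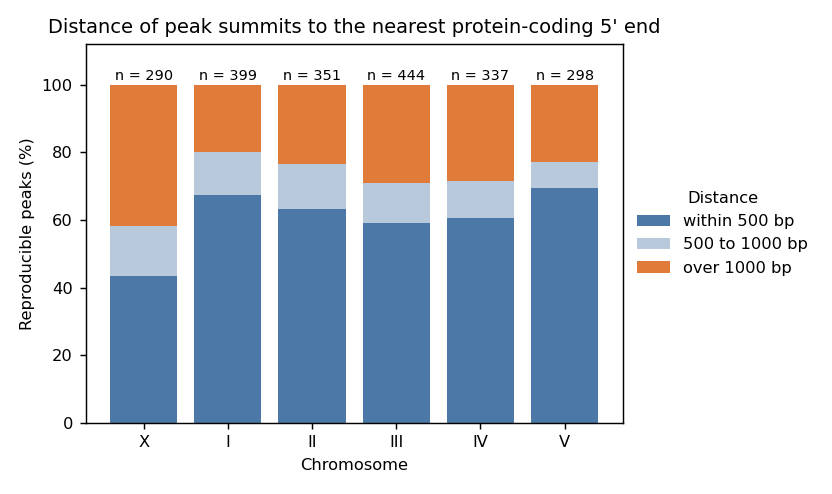
Share of the reproducible peaks of each chromosome (y axis, percent) by distance of the summit to the nearest protein-coding 5' end. The distal part is 41.7% on X and 20.1% to 29.1% on the autosomes.

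The replicates gave the same direction when each was taken alone with its strongest calls. The reproducible set was derived from these same replicates. Of the 290 X peaks 223 were among the strongest calls of replicate 1 and 246 among those of replicate 2. The distal share was also added after the windows were seen, so the shared direction is a description and carries no independent support. In replicate 1, 43.0% of X calls were distal, against 26.9% of autosomal calls, and in replicate 2 the shares were 39.6% on X and 25.8% on the autosomes. The difference was 16.8 percentage points in the reproducible set, 16.1 in replicate 1 alone and 13.8 in replicate 2 alone.

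Counted by a fixed number of peaks, the contrast was wide among the strongest. A fixed number is a larger part of the 290 X peaks than of the 1829 autosomal ones, and reaches lower signals on X. Of the 15 strongest X peaks 10 were distal and 5 lay within 500 bp of a 5' end, whereas of the 15 strongest autosomal peaks 0 were distal and 13 lay within 500 bp. Among the 50 strongest of each, 25 were distal on X and 6 on the autosomes. Counted the other way, X supplied 10 of the 20 strongest distal peaks of the genome and 30 of the 100 strongest, against 121 of all 576. Of the peaks within 500 bp of 5' ends X supplied 7 of the 100 strongest and 126 of all 1290. Over the whole range the trend was not uniform. Each set was also split into 4 groups of about equal size, from strongest to weakest. The distal share was 41.1%, 34.7%, 37.5% and 53.4% on X, and 18.4%, 23.6%, 28.01% and 29.5% on the autosomes. The gap between X and the autosomes was thus about as wide in the weakest group as in the strongest.

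Distal X peaks were mostly outside genes. Of 121, 91 lay between genes (75.2%), 27 in introns and 3 in exons, against 297 between genes (65.3%), 148 in introns and 10 in exons of 455 distal autosomal peaks. X has more sequence between genes, 44.5% of its bases against 35.8% of autosomal bases. Of distal X peaks 26 were within 500 bp of the 5' end of an annotated noncoding gene (21.5%), against 105 on the autosomes (23.1%). A peak of this kind, in an intron of F09A5.3 (chrX:13145253-13145576, signal 249.8), lay upstream of the microRNA genes cel-mir-54 and cel-mir-55, the only 2 of 74 microRNA genes on X with a peak within 500 bp, against 17 of 187 on the autosomes.

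The strongest distal peak, nearest to C30E1.4 at 5828 bp (chrX:16929673-16929836), had a signal of 453.7 in the reproducible set, 210 in replicate 1 and 240 in replicate 2. The peak 2523 bp from ZK899.6 (chrX:9465781-9465952) had 426, with 200.7 and 224 in the replicates. The peak 6076 bp from K02D3.1 (chrX:13700669-13700992) had 363, with 173 and 190. All 3 ranked among the 51 strongest calls of each replicate. The peaks near W02H3.3 (4015 bp, signal 362), F20B6.9 (1771 bp, 332) and F55G7.5 (1402 bp, 296) completed the 6 strongest. These distances are to protein-coding genes only. To the nearest tRNA, snoRNA or snRNA gene the 6 peaks, in the order named, lay 1423, 1932, 12896, 1502, 13209 and 2373 bp away. The peak nearest to mgrn-1, the worm mahogunin ring finger gene, lay 1022 bp away (signal 295), just beyond the distance that defines distal peaks.

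Others lay inside genes. The peak with the longest distance to any 5' end, 15202 bp, had its summit in an exon of pks-1, a polyketide synthase gene (chrX:5429390-5429713, signal 272, with 125 in replicate 1 and 144 in replicate 2). The peak at chrX:12362955-12363278 (signal 276) lay in an exon of F19H6.6, and that at chrX:6296410-6296733 (signal 269) in an intron of mom-1, the worm Porcupine homologue needed for Wnt secretion. The mom-1 peak ranked 41 in replicate 1 (signal 171) and 271 in replicate 2 (99.7). Exon summits were few on X, 10 of 290 (3.45%, 1.67 to 6.25), against 122 of 1829 on the autosomes (6.67%). Chromosome IV had a like share, 3.86%, and exons cover 24.9% of the bases of X and 30.5% of autosomal bases. The third strongest exon peak on X lay 26 bp inside snrp-40.1, which codes for a spliceosomal U5 protein (signal 123).

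Some of the distal X peaks held short sequence words that no distal autosomal peak held. Within 100 bp of the summit, GCGCAGGG was found at 11 of 121 distal X peaks (9.09%) and at 0 of 455 distal autosomal peaks. The exact upper bound for that count of 0 is 0.807%, which does not allow for the word being picked with the windows seen. GCGAAGGG, which differs at a single letter, was likewise found at 11 of 121 and 0 of 455. Either word was present at 17 of 121 distal X peaks (14.0%, 8.40 to 21.5). These words were picked after the windows had been seen: the first resembles the motif known from dosage compensation recruitment sites on X, and the second came from ranking all words in these windows. Among 13950 8-letter words in the distal X windows, both strands merged, 37 were in at least 11 windows. Only these 2 of the 37 were in no distal autosomal window, and the next word absent from those was in 6 X windows. The shares therefore describe these windows and carry no test.

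**Figure D2:**
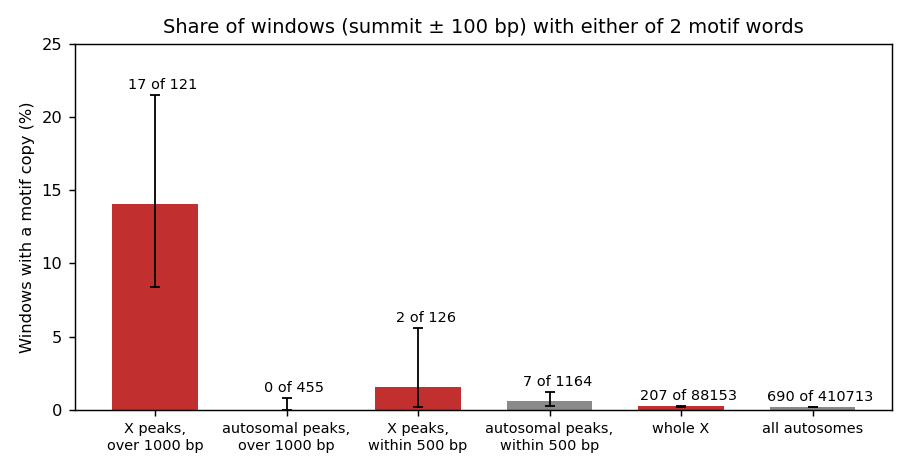
Share of windows reaching 100 bp to either side of their centre (y axis, percent) that hold GCGCAGGG or GCGAAGGG on either strand, for peak summits and for consecutive windows of that length over whole chromosomes, with 95% exact intervals. The share is 14.0% at distal X peaks and 0% at distal autosomal peaks.

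The words themselves are rare and somewhat more frequent on X. Of consecutive windows of that length over the chromosome, 0.235% on X and 0.168% on the autosomes held either word. For GCGCAGGG alone the shares were 0.0851% and 0.0553%. How often a copy lay at a peak differed more. The words were picked with windows at these peaks seen, and the replicate calls below underlie the same peaks. These counts are therefore a description and carry no independent support. Of 81 copies of GCGCAGGG on X, 18 were within 100 bp of a reproducible summit (22.2%, 13.7 to 32.8), against 2 of 233 copies on the autosomes (0.858%). Of the strongest calls of each replicate alone, replicate 1 covered 20 copies on X and 2 on the autosomes, and replicate 2 covered 19 on X and 2 on the autosomes. Without the small RNA gene rule the counts were 20 on X and 3 on the autosomes. For GCGAAGGG 12 of 140 copies on X (8.57%) and 5 of 491 on the autosomes (1.02%) lay at reproducible summits.

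Near 5' ends the words were rare on X too. They were found at 2 of 126 X peaks within 500 bp of a 5' end (1.59%), upstream of apm-3 and beside R04E5.9, and at 7 of 1164 such autosomal peaks (0.601%). Counting the 2 X peaks at intermediate distance, nearest to nspc-17 and ins-39, 21 X peaks held a copy. Of these 6 held both words, 9 only GCGCAGGG and 6 only GCGAAGGG.

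Most distal X peaks with a copy were strong ones. The 17 with a copy had a median signal of 220 (range 57.2 to 426) and a median percentile of 8.17, while the 104 without had a median signal of 69.2 and a percentile of 61.5. Split by signal, 16 of the stronger 61 distal X peaks held a copy and 1 of the weaker 60. All 17 were called in both replicates, with median signals of 109 in replicate 1 and 102 in replicate 2, and 6 of them held at least 2 copies. Both words were picked with these windows seen, so these values are a description and carry no independent support. GCGCAGGG alone was found in 11 of the stronger 61 and 0 of the weaker 60, and GCGAAGGG in 10 and 1. The strongest distal X peak, near C30E1.4, held neither word, and of the 10 distal peaks among the 15 strongest on X 7 held a copy.

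**Figure D3:**
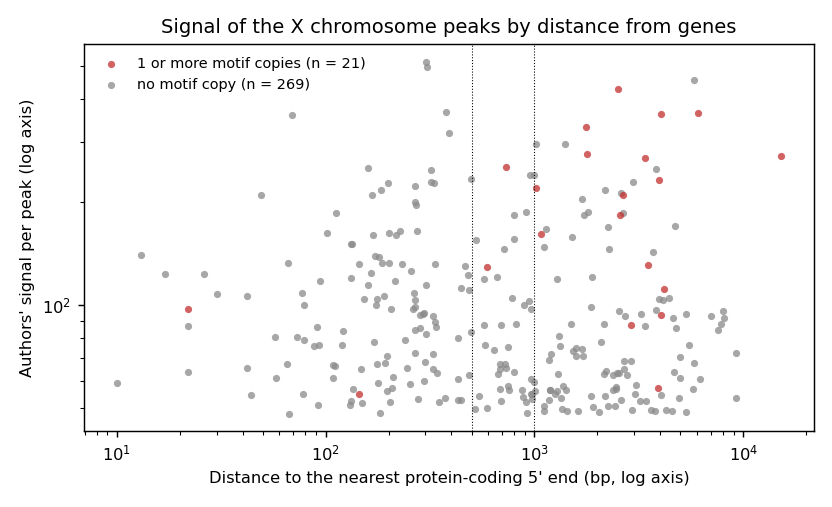
Authors' signal of the 290 X peaks (y axis, log scale) against distance to the nearest protein-coding 5' end (x axis, bp, log scale), with peaks that hold a motif copy in red and dotted lines at 500 and 1000 bp. Most of the 21 peaks with a copy lie beyond 1000 bp and toward the top of the range.

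The bases beside GCGCAGGG were alike at many peaks but not at every one. The 30 copies at X peaks lay a median of 41 bp from the summit, and 20 were within 50 bp. At the 18 GCGCAGGG copies at peaks, TC came directly before the word in 10 and A directly after it in 14. Over all 81 copies on X, TC came before it in 19 and A after it in 34, counts that include the copies at peaks. Beside GCGAAGGG, TC came before 4 of 12 copies at peaks and A after 9. All other GCGCAGGG copies at distal X peaks are printed, those with TC and those without, such as the F19H6.6 copy, which has neither TC nor A. Each is given with its 12 neighbouring bases on either side, in the direction that reads GCGCAGGG, with the position and strand of the capital word and the gene nearest to the peak or holding it.
F19H6.6 exon, chrX:12363039-12363046, reverse strand: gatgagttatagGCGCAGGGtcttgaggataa
pks-1 exon, chrX:5429590-5429597, forward strand: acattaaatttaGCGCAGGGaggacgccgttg
mom-1 intron, chrX:6296548-6296555, forward strand: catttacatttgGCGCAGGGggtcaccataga
mom-1 intron, chrX:6296576-6296583, forward strand: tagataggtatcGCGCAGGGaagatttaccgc
gtr-1, chrX:806674-806681, forward strand: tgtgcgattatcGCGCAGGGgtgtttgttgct
gtr-1, chrX:806750-806757, forward strand: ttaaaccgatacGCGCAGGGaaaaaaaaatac
Y41G9A.17 intron, chrX:2997123-2997130, reverse strand: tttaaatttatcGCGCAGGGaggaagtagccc
F22H10.2, chrX:16682172-16682179, reverse strand: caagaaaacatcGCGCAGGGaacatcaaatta
T24D8.6, chrX:2364899-2364906, reverse strand: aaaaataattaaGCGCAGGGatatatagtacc
col-185, chrX:13514558-13514565, forward strand: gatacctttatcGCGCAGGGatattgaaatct
B0302.2, chrX:17181365-17181372, reverse strand: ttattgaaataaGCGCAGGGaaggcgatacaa

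Other words split X and autosomal peaks in the opposite way or less. GAGAGAG was found at 25 of 121 distal X peaks (20.7%) and 179 of 455 distal autosomal peaks (39.3%), with 30.9% to 47.5% on single autosomes. It is about equally frequent over whole chromosomes, in 2.49% of X windows and 2.73% of autosomal windows. CACGTG, the E-box word, was found at 26 distal X peaks (21.5%, 14.5 to 29.9) and 68 distal autosomal peaks (14.9%), and single autosomes had 8.75% to 20.7%. Each motif was searched as these exact letters on both strands.

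Promoter peaks of X differed from autosomal ones in the layout of the genes. The summit lay upstream of the 5' end for 117 of 126 X peaks (92.9%) and 1060 of 1164 autosomal peaks (91.1%), with a median position of -185 bp on X and -156.5 bp on the autosomes. Between a pair of divergent 5' ends, both within 500 bp of the summit, were 11 of 126 X peaks (8.73%, 4.44 to 15.1) and 350 of 1164 autosomal peaks (30.1%), with 24.8% to 34.4% on single autosomes. The annotation differs in the same direction, since 161 of 2731 X genes (5.90%) and 3378 of 17242 autosomal genes (19.6%) have a divergent protein-coding neighbour whose 5' end lies within 1000 bp upstream. Among genes with a peak, where a peak between a pair counts for both genes, these shares were 29 of 140 on X (20.7%) and 808 of 1517 on the autosomes (53.3%).

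Word and base content at promoter peaks also had different values on X. The CHR word TTTGAA, which DREAM-type complexes recognise in mammals, was found at 28 of 126 X promoter peaks (22.2%, 15.3 to 30.5) and 525 of 1164 autosomal ones (45.1%). Whole chromosomes hold it about equally, in 49.4% of X windows and 48.8% of autosomal windows, and it occurs in 45.7% of windows centred 160 bp upstream of X genes and 50.5% of those of autosomal genes. The related word TTCGAA was at 6.35% of X and 17.5% of autosomal promoter peaks. The median GC content of promoter peak windows was 46.8% on X and 39.8% on the autosomes, with 39.3% to 40.8% on single autosomes. The difference, 6.97 percentage points, was 3.96 with 50 bp to either side of the summit. Windows upstream of all genes had medians of 35.3% on X and 33.3% on the autosomes. The part of GC content in the counts of these AT-rich words was not tested.

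A reproducible peak within 500 bp of a 5' end was found for 140 of 2731 protein-coding genes on X, 5.13% (4.33 to 6.02), against 1517 of 17242 on the autosomes, 8.80%, and 8.30% over all chromosomes. Chromosome V, at 5.39%, was close to X. A peak between divergent 5' ends counts for more than 1 gene here. When each peak counted for its nearest 5' end only, the difference was -1.96 percentage points in place of -3.67.

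The 5 strongest promoter peaks on X lay upstream of puf-9, serp-1.1, rpl-11.2, hsp-3 and eef-1A.2. The puf-9 peak (chrX:5841219-5841411) had a signal of 513, with 256 in replicate 1 and 262 in replicate 2, and the serp-1.1 peak (chrX:15841173-15841339), 305 bp upstream, had 495, with 218 and 279. The peak 375 bp upstream of rpl-11.2 had 367, with 177 and 188. The peak 69 bp upstream of hsp-3, which codes for an endoplasmic reticulum Hsp70 chaperone, had 359, with 138 and 212. The peak 390 bp upstream of eef-1A.2, a translation elongation factor gene, had 317, with 168 and 143. Further strong ones, named after their values were seen, were at epg-7, an autophagy gene (252), dpy-23, a clathrin adaptor subunit (248), epn-1, an endocytic epsin (234), uggt-1, a glucosyltransferase of glycoprotein quality control (227), and pdi-6, a protein disulfide isomerase (209). No enrichment of such genes was tested.

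Genes of dosage compensation and sex determination on X had only weak peaks. The peak of sdc-2, which recruits the dosage compensation complex to X, lay 432 bp upstream (signal 53.1, with 18.7 in replicate 1 and 33.7 in replicate 2) and ranked 1883 of 2119. The peak of ceh-39, a homeobox gene that acts as an X signal element, lay 207 bp upstream (57.5, with 25.04 and 31.5) and ranked 1690. No peak was within 500 bp of fox-1, also an X signal element, or of sdc-1, and in all 2 of 6 X signal element and sex determination genes on X had one, against 0 of 4 on the autosomes. The shares over all genes are 5.13% on X and 8.80% on the autosomes, and lists this small say little beside them. Of the dosage compensation list 1 of 3 genes on X, sdc-2, and 2 of 9 on the autosomes had one. Of 18 genes of the homeobox ceh series on X ceh-39 alone had one, against 1 of 45 on the autosomes.

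Other gene groups on X are described by counts beside 5.13% of all X genes, and most hold too few genes to read more from them. Of 8 synMuv and chromatin genes on X 1 had a peak, the linker histone gene his-24 (signal 81.0, with 22.2 in replicate 1 and 57.9 in replicate 2), against 11 of 26 on the autosomes. Of ribosomal protein genes 1 of 2 on X, rpl-11.2 and not rpl-25.1, and 57 of 76 on the autosomes had one. Of the heterochronic genes listed here, 1 of 6 on X, puf-9, and 2 of 9 on the autosomes had one, with alg-1, a microRNA Argonaute, among those without. That list is not complete and was chosen with earlier results of these data known. X carries no gene of the lists of mitochondrial ribosomal proteins, proteasome subunits and aminoacyl-tRNA synthetases, of which 16 of 70, 17 of 33 and 7 of 32 on the autosomes had a peak.

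Of 23 nuclear hormone receptor genes of the list on X 2 had a peak, nhr-17 (63.5) and nhr-32 (60.3), and both peaks had no call in replicate 1, against 9 of 246 on the autosomes. Among neuropeptide genes 1 of 34 on X had one, nlp-76 (48.3), the weakest of all X peaks, whose summit lay in an exon of nhr-17, against 0 of 106 on the autosomes. Among uncoordinated genes 1 of 16 had one, unc-115, a LIM domain gene (54.6), against 12 of 78 on the autosomes. None was found at 27 collagen genes, 27 acetylcholine receptor and ligand-gated channel genes, 12 potassium channel genes, 5 vulval signalling genes, 5 vitellogenin genes and 4 guanylyl cyclase genes on X. On the autosomes the counts for these lists were 4 of 129, 1 of 60, 0 of 39, 2 of 16, 0 of 1 and 0 of 27. The shares over all genes are 5.13% on X and 8.80% on the autosomes. Beside 5.13%, the lists on X are too small for a count of 0 to show that a gene family lacks peaks.

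The peaks were unevenly spread along X, with more toward its right end. Of 3 stretches of equal length, from left to right, the X peaks divided into 76, 87 and 127, which is 26.2%, 30% and 43.8%. On the autosomes pooled the middle stretch held most, with 29.96%, 40.8% and 29.2% from left to right. Single autosomes varied: on chromosome IV the left stretch held 38.9% and the middle 37.98%, and on II the right one held 36.8%. None had as large a share on the right as X. The densest whole Mb of X, from 14000001 to 15000000, held 26 peaks. The strongest there were those near mgrn-1 (295), near nspc-17, a nematode-specific peptide gene (254), and at epn-1 (234). The last, incomplete stretch, from 17000001 to 17718942, held 21 peaks, or 29.2 per Mb, of which 14 were distal and none exceeded a signal of 94.4. The first Mb held 7, and the widest stretch with no peak spanned 406530 bp (from summit 16205971 to 16612501) and contained 44 genes and 113 pooled calls. By signal the order was the reverse of that by number, with medians of 92.3, 84.7 and 78.1 from left to right.

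**Figure D4:**
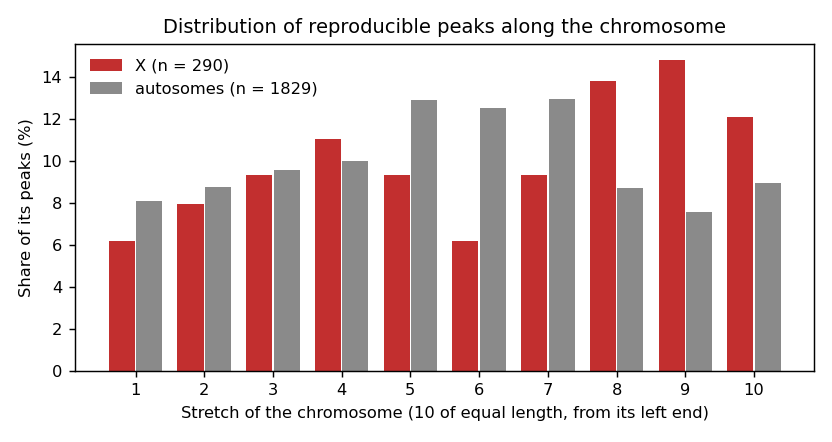
Share of the 290 X peaks and of the 1829 autosomal peaks (y axis, percent) in each of 10 stretches of equal length, from the left end of the chromosome (x axis). The X bars are highest in the last 3, at 12.1% to 14.8%, where the autosomal bars are lower than in the middle.

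Both replicate lists held a call at most X peaks. The reproducible set was itself chosen for similar ranking in these replicates, so the shares below describe the set and do not test its reproducibility. Each list holds 30000 calls, background included, and only 5.98% of the calls kept on X in replicate 1 and 14.6% in replicate 2 had a q-value under 0.05. A call within 100 bp of the summit was present in both replicate lists for 265 of 290 X peaks (91.4%, 87.5 to 94.3) and for 94.1% of autosomal peaks. On X 11 had a call only in replicate 1, 13 only in replicate 2 and 1 in neither. That last peak (chrX:16612541-16612864, signal 58.1) lay 748 bp from ain-1, a gene of the microRNA silencing complex, beside a stronger peak 950 bp from it (signal 240). Among X peaks within 500 bp of 5' ends 119 of 126 were called in both (94.4%), and among distal ones 106 of 121 (87.6%), against 96.0% and 90.1% on the autosomes. Across the 265 peaks called in both, replicate signals had a Spearman rho of 0.727 and a Pearson r of 0.732 on the log2 scale, a description across peaks, which are not independent samples.

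**Figure D5:**
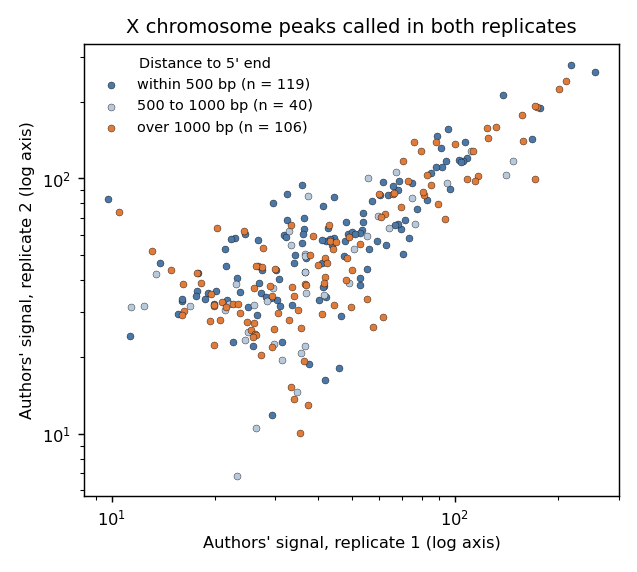
Authors' signal in replicate 1 (x axis, log scale) and replicate 2 (y axis, log scale) for the 265 X peaks called in both, coloured by distance to the nearest protein-coding 5' end. Strong peaks of all classes lie along the diagonal, and the scatter is wider among weak ones.

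The 4 weakest X peaks lay near nlp-76 (48.3), nkb-3, a sodium-potassium ATPase subunit gene (48.4), nhr-14 (48.6) and nhr-40 (48.9). Their ranks in single replicates reached 16461 for nkb-3 in replicate 1 and 8997 for nlp-76 in replicate 2, while the reproducible set has 2119 peaks after the rule. Low ranks in a single replicate were not confined to weak peaks: the peak near F09E10.1 with signal 118.9 ranked 20112 in replicate 1, and that near bet-2 with 84.7 ranked 23597 there, both named after their values were seen. Each lay beside a stronger X peak with the same nearest gene. Those neighbours had signals of 216.5 near F09E10.1 and 120.8 near bet-2, and ranked 341 and 469 in replicate 1. Of all X peaks 64.1% were also among the strongest calls of both replicates, taking as many calls as the IDR list holds, against 67.9% of autosomal peaks.

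The rule on small RNA genes bears on X more than on other chromosomes, since X carries 276 of the annotated tRNA genes and all autosomes together 336. The X peaks nearest to the limit on the kept side lay 613 bp (signal 91.5) and 670 bp (87.6) from such a gene, and on the other side 323 bp (289) and 141 bp (51.4). The 49 X peaks left out had a median signal of 64.99, and the 165 autosomal ones 80.6.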

How the data were processed

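Peak lists in the ce11 build were used. Per the deposited descriptions, the authors called peaks on each replicate against a control, called a list of 30000 calls on the replicates pooled, and derived the IDR list from these. Not given in the sources used here are aligner, caller, versions, IDR threshold and depth. The deposited signal is the authors' score per call, compared only within a list. The deposited −log10 q-value served for 1 count, of replicate calls at q below 0.05.

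Summits were set against protein-coding transcript 5' ends and small RNA genes of Ensembl release 115 (WBcel235), with windows of 500 and 1000 bp. Sequence came from the RefSeq copy of that assembly, 100 bp to either side of a summit. Replicate calls were matched within 100 bp. Python 3.11.15, numpy 2.4.6, pandas 2.3.3 and scipy 1.17.1 were used, and the distance and matching code was tested on simulated data. Values on X are set beside the 5 autosomes with exact 95% intervals. No test was made, because the labels give 1 group of 2 replicates and peaks are not replicates.

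The members, 19 gene lists and measures were chosen with earlier results of these data known. The distal share and both 8-letter words were added after these windows were seen, the words from inspection of several motif words and a ranking of short words. Genes named are those of the 15 strongest X peaks, the 6 strongest distal, the 3 strongest exonic and the 4 weakest, peaks at the small RNA limit, the densest Mb, list members with a peak and some without, and a peak with no replicate call. The genes holding or next to motif copies, and others so marked, were named after their values were seen.

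Alternatives were each replicate alone with as many of its strongest calls as the IDR list holds, the stronger 50% of the set, no or a 1000 bp small RNA rule, other windows, other matching distances, counting per gene, and the ce10 lists (scaled by ce11 lengths).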

Additional observations from a re-analysis of the deposited data

How the results depend on the processing

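No paired analysis was possible because both replicates belong to a single group. X minus autosome differences, in percentage points, kept their direction under all alternatives run for the distal share, the share within 500 bp, the share of genes with a peak and the motif share. This carries no independent support, because the alternatives use overlapping peaks. For the motif share the words were also picked with these windows seen, and the distal share was added after that. Leaving out a replicate gave 13.8 to 16.1 for the distal share (16.8 as reported), -20.4 to -16.3 for the share within 500 bp (-20.2), -3.80 to -2.74 for genes with a peak (-3.67) and 11.3 to 12.7 for the motif share (14.0). The distal share was 19.2 with no small RNA rule, the share within 500 bp became -16.8 at 1000 bp, and the motif share 9.09 with 50 bp to either side of the summit. Genes with a peak gave -1.86 in the stronger 50%, -2.85 at 250 bp and -1.96 by nearest end. The difference in GC content at promoter peaks, 6.97, was 3.96 with 50 bp to either side.

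The density ratio of X over autosomes was 0.739 as reported, 0.734 to 0.809 without a replicate, 0.792 with no small RNA rule (0.789 in ce10, also without the rule) and 1.00 per gene. The difference in median percentile, -4.08, was 0.236 to 2.69 without a replicate and 0.0643 with no small RNA rule, so its direction is not established. The difference in peaks called by both replicates, -2.72, was 1.20 in the stronger 50%, where its sign changed, -4.37 at 50 bp, -1.08 at 200 bp and -3.71 among the strongest calls only. The cause of these shifts was not tested.

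With 2 replicates, no read depth and no control libraries analysed here, the lists cannot give a test between X and the autosomes, show what an untagged strain gives, or separate weak binding from background below the lowest signal of 48.3 on X.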
